A study of Canis lupus familiaris with 12 samples.

Results

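The genes described here are 10 members of the cadherin-catenin adhesion system, measured in Madin-Darby canine kidney (MDCK) cells, an established epithelial line from dog kidney tubule. They were chosen by symbol: 7 cadherins (CDH1, CDH2, CDH3, CDH6, CDH11, CDH16 and CDH17) and 3 catenins (CTNNA1, CTNNB1 and CTNND1). They are 10 of 15115 genes that the arrays measured through a probe set naming 1 gene, and 23 probe sets represented them. All cells were MDCK II tet-off cells kept under G418, grown in type I collagen until day 8 and released with collagenase. In 2D culture, the control, they formed flat sheets (6 arrays), and in 3D culture they formed multicellular cysts (6 arrays). Each array carried RNA pooled from 4 separate samples, and how samples were assigned to pools is not stated. The p-values therefore describe variation among pools of 1 cell line. The labels name no transgene for the tet-off cells.

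Cadherins are calcium-dependent adhesion proteins of the cell surface. In a classical cadherin such as E-cadherin the cytoplasmic tail binds beta-catenin, which binds alpha-catenin and through it actin, while p120-catenin binds the tail nearer the membrane and holds the cadherin at the surface. Beta-catenin also acts in the nucleus as a partner of TCF transcription factors in Wnt signalling. MDCK cells are a standard system for adherens junctions, and when grown in collagen gel they form cysts with a central lumen.

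Values are log2(intensity + 1) of the deposited linear intensities, and log2 change means the 3D mean minus the 2D mean on that scale, which understates the change of dim genes. A control level, the 95th percentile of 59 probe sets for bacterial and tag sequences that match no dog gene, averaged 5.71 over the arrays. Levels of different probe sets are not comparable with each other, so comparisons between genes were of the change of each. Levels were set beside the control level and marker genes as a rough guide to background, and were summed within each marker list. Of the kidney tubule markers 7 of 8 lay above the control level (LHX1 lay below it on every array). In bulk RNA, fewer cells of a type and less RNA per cell cannot be told apart. Of the 8, KRT8, KRT18 and MAL rose, by 0.64, 0.18 and 0.58 on the log2 scale used below, PAX2 and CDH16 fell, and the median change was -0.017 (adjusted p under 0.05 as below). The summed intensity of these 8 markers ranged from 34272 to 38641 in 2D and from 43792 to 45472 in 3D. Of 10 fibroblast markers 0 rose and 2 fell, with POSTN, TCF21 and COL1A2 at or below the control level on every array. Their summed intensity was 552.8 to 634.5 in 2D and 520.4 to 571.8 in 3D. Among 8 leukocyte markers 1 rose (CD14) and 4 fell, with LYZ at or below the control level throughout and summed intensities of 634.7 to 694.3 and 606.0 to 682.4. Of 6 endothelial markers 0 rose and 3 fell, PECAM1 lay at or below the control level throughout, and summed intensities were 440.1 to 484.8 in 2D and 392.6 to 436.6 in 3D. Other markers of these lists lay above the control level on every array. They were COL3A1, PDGFRB and THY1 of fibroblasts, PTPRC, CD14, CD68, ITGAM and CD3E of leukocytes, and CDH5, VWF and KDR of endothelium. The control level therefore does not by itself separate genes of epithelium from those of other cell types.

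RNA integrity was read from control probe sets at both ends of the actin and GAPDH transcripts. Their mean log2 ratio of 5-prime to 3-prime signal averaged -0.92 ± 0.14 over the 2D arrays and -0.54 ± 0.17 over the 3D arrays (SD, n = 6 per group; exact permutation p = 0.00866, two-sided). Array 2 of the 3D group stood apart from its group with a ratio of -0.88, against -0.55 on the nearest 3D array. For the cadherins and catenins, calls lost with this ratio as a covariate or without this array are given beside the result.

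The main change was in CDH17. This gene encodes liver-intestine cadherin, a cadherin of gut epithelium whose short tail lacks the catenin-binding region, and it rose 7.38-fold in 3D. CDH1, E-cadherin, rose 2.03-fold, a call lost with the RNA control ratio as a covariate (log2 change 0.15, limma adjusted p = 0.576). All 3 catenins rose, on their brightest probe sets by 1.16-fold (CTNNA1), 1.26-fold (CTNNB1) and 1.47-fold (CTNND1). Of these probe sets only that of CTNNB1 kept its call with the ratio. CDH16, the kidney-specific cadherin of tubule cells, fell slightly. CDH2 and CDH11, the N-cadherin of neural and mesenchymal cells and the OB-cadherin of mesenchymal cells, stayed near or below the control level in both cultures. The probe sets of CDH3 and CDH6 disagreed among themselves. With each gene represented by its probe set of highest mean, 5 of 10 genes rose and 2, CDH16 and CDH11, were called lower (limma, Benjamini-Hochberg adjusted p under 0.05 over 42924 probe sets), where 19.8% of all genes rose and 22.9% fell. The median log2 change of the 10 was 0.16, against -0.05 over all genes. The plot of signal per array shows these values.

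**Figure D1:**
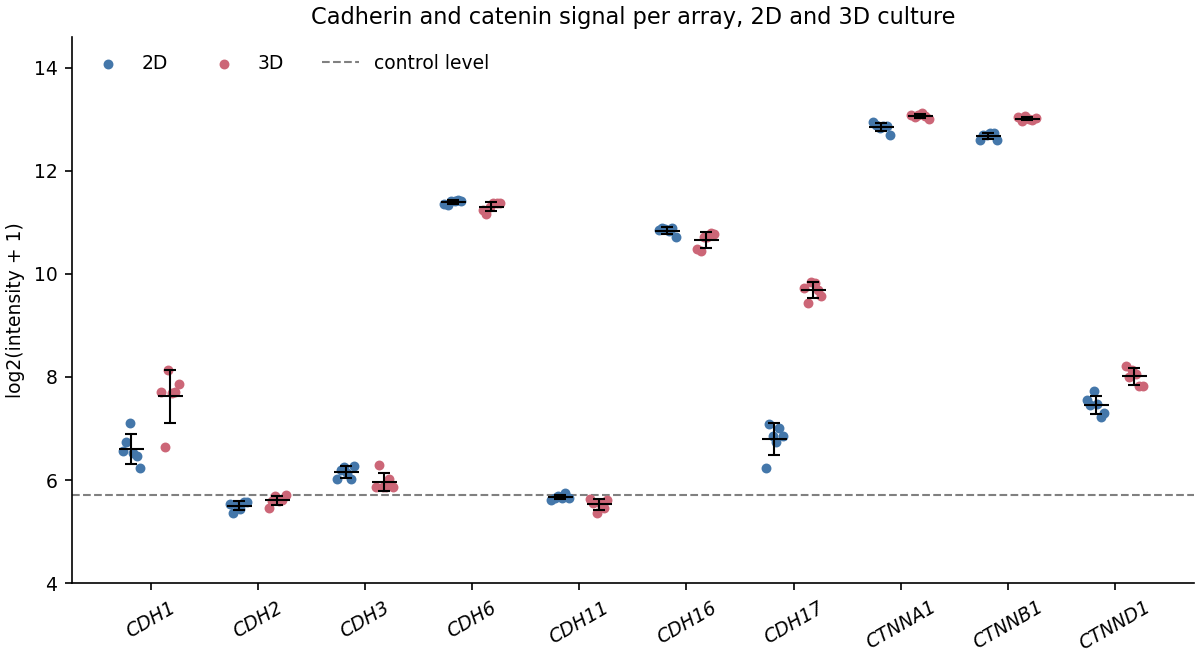
Signal of the 10 genes, each by its probe set of highest mean, as log2(intensity + 1) on the vertical axis for 6 arrays of 2D culture and 6 of 3D culture. Points are arrays, black marks are the mean ± SD, and the dashed line is the mean control level of 5.71. The 3D points of CDH17 (9.43 to 9.84) lie clear of its 2D points (6.23 to 7.09), and 1 of the 3D points of CDH1 (6.65) lies among its 2D points.

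CDH17 was measured by a single probe set. In 2D its log2 value was 6.23 at the lowest, 6.86 at the median and 7.09 at the highest, and in 3D it was 9.43, 9.71 and 9.84. All 3D arrays were above all 2D arrays, and the 2D values were above the control level on each array. So were those of the endothelial markers CDH5 and KDR, with 2D means of 6.84 and 6.91. Whether the 2D signal of CDH17 exceeds background was therefore not settled, and its fold depends on that. The same limit holds for every other probe set named below with a 2D mean under these values. The mean went from 6.80 ± 0.30 to 9.68 ± 0.16 (SD, n = 6 per group), a change of 2.88 on the log2 scale (SE 0.12, limma adjusted p = 2.67e-11). The 95% interval of the fold was 6.21 to 8.78. Counting CDH17 itself, 20 of 15115 genes (0.132%) had a log2 change at least as large. Adding the RNA control ratio as a covariate left it at 2.80 (limma adjusted p = 8.89e-08).

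CDH1 was also measured by 1 probe set. Its 2D values ran from 6.23 through a median of 6.54 to 7.11, and its 3D values from 6.65 through 7.71 to 8.13. The groups overlapped through a single array, 3D array 2 at 6.65, which lay below 2D arrays 2 and 3; the next 3D value was 7.68. The mean went from 6.60 ± 0.30 to 7.62 ± 0.51 (SD, n = 6 per group), a change of 1.02 on the log2 scale (SE 0.20, limma adjusted p = 0.000688), and a change at least this large was found for 271 genes (1.79%). Without 3D array 2 it was 1.21 (limma adjusted p = 1.47e-06). The 2D mean of CDH1 also lay below those of CDH5 and KDR, so the limit given for CDH17 holds here too.

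The signal of CDH1 followed the RNA control ratio within the 3D group. Across the 6 arrays of 3D, Pearson's r was 0.99 (exact permutation p = 0.00417, adjusted 0.0167 over 4 relations) and Spearman's rho was 0.94 (exact permutation p = 0.0167, adjusted 0.0667), and r was 0.80 without 3D arrays 2 and 3, those farthest from the median ratio. Across the 6 arrays of 2D, r was 0.73 (exact permutation p = 0.0792, adjusted 0.106) and rho 0.83 (exact permutation p = 0.0583, adjusted 0.117), with r of 0.66 without 2D arrays 3 and 5. With the ratio as a covariate the log2 change of CDH1 was 0.15 (limma adjusted p = 0.576), which is no longer a call. With a further actin pair in the ratio, added after the values were seen, it was 0.37 (limma adjusted p = 0.0744). The ratio and the culture differ together across these arrays, and the part of the ratio in the rise of CDH1 was not tested apart from these fits.

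For CDH17 the same relations gave r of 0.76 in 3D (exact permutation p = 0.0736, adjusted 0.106) and rho of 0.60 (exact permutation p = 0.242, adjusted 0.322), and r was -0.52 without 3D arrays 2 and 3. In 2D r was -0.22 (exact permutation p = 0.769, adjusted 0.769) and rho 0.14 (exact permutation p = 0.803, adjusted 0.803), with r of -0.15 without 2D arrays 3 and 5. On 3D array 2, where CDH1 was at its 2D level, CDH17 stood at 9.43, far above the highest 2D value of 7.09. The plot of signal against the control ratio shows both genes.

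**Figure D2:**
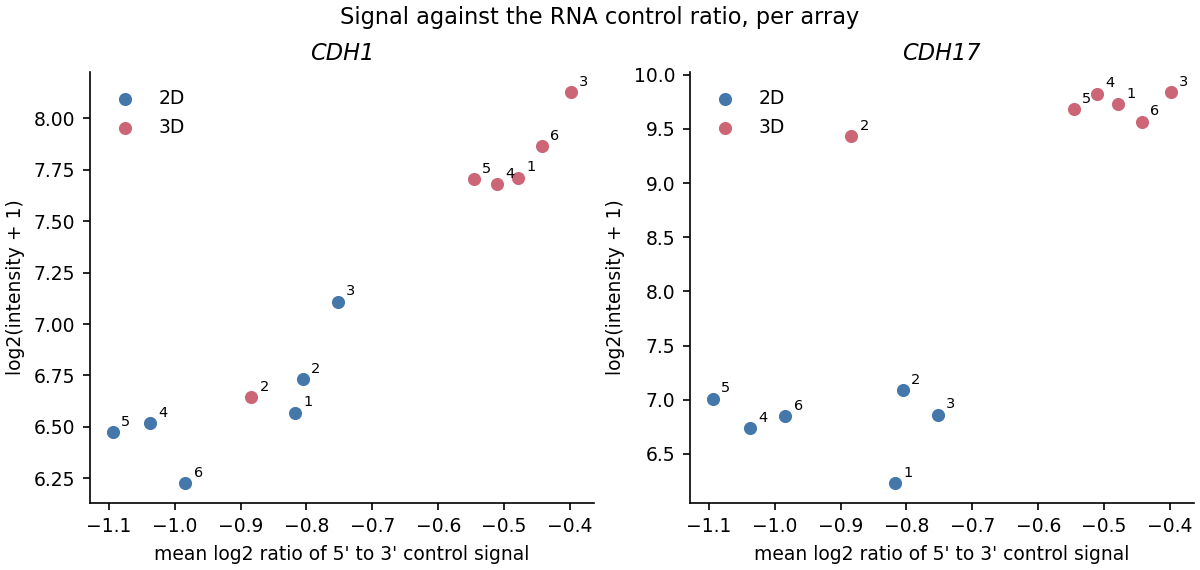
Log2(intensity + 1) of CDH1 (left) and CDH17 (right) on the vertical axis against the mean log2 ratio of 5-prime to 3-prime control signal on the horizontal axis, with 1 point per array numbered by replicate. In the left panel 3D array 2 (ratio -0.88, CDH1 6.65) lies among the 2D arrays, and in the right panel it lies with the other 3D arrays (CDH17 9.43).

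The alpha-catenin CTNNA1, the link of the complex to actin, had 3 probe sets and all 3 rose. On the brightest its values were 12.70, 12.87 and 12.95 in 2D (lowest, median, highest) and 13.01, 13.07 and 13.11 in 3D, with no overlap. Its log2 change was 0.21 (SE 0.05, limma adjusted p = 0.00203). The other probe sets gave 0.34 (SE 0.05, limma adjusted p = 5.91e-05), also with no overlap, and 0.39 (SE 0.09, limma adjusted p = 0.00340). The last of these overlapped between groups: its lowest 3D value, 10.62, was that of array 2, and the next was 11.13. With the control ratio as a covariate the brightest probe set had 0.18 (limma adjusted p = 0.117), the second 0.23 (limma adjusted p = 0.0417) and the third 0.03 (limma adjusted p = 0.877).

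Beta-catenin, CTNNB1, the partner of both the cadherin tail and the TCF factors, rose on each of its 2 probe sets. The brighter ran from 12.59 through 12.70 to 12.73 in 2D and from 12.96 through 13.01 to 13.05 in 3D. All 3D values were above all 2D values, and the means were 12.67 ± 0.06 and 13.01 ± 0.04 (SD, n = 6 per group). The log2 change was 0.34 (SE 0.04, limma adjusted p = 1.32e-05), a rise of 26.4% on this scale. The second probe set gave 0.24 (SE 0.06, limma adjusted p = 0.00309), with no overlap. Both passed with the control ratio as a covariate, at 0.32 (limma adjusted p = 0.00443) and 0.31 (limma adjusted p = 0.0258).

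The p120-catenin CTNND1 had the largest rise among the catenins. Its brighter probe set had 2D values of 7.21, 7.47 and 7.73 (lowest, median, highest) and 3D values of 7.83, 8.03 and 8.21. The groups did not overlap, and the log2 change was 0.55 (SE 0.09, limma adjusted p = 0.000112). The dimmer probe set gave 0.42 (SE 0.06, limma adjusted p = 5.62e-05), again without overlap. With the control ratio as a covariate these were 0.37 (limma adjusted p = 0.0610) and 0.33 (limma adjusted p = 0.0260). All 7 catenin probe sets therefore rose, where 16.7% of all probe sets did. The 2D mean of the dimmer CTNND1 probe set, 6.45, lay below those of CDH5 and KDR, so the limit given for CDH17 holds for it.

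CDH16, or kidney-specific cadherin, is found on the basolateral membrane of tubule epithelium and, like CDH17, has a short tail without the catenin-binding region. Each of its 3 probe sets fell in 3D by a small amount. On the brightest the values were 10.72, 10.86 and 10.89 in 2D and 10.44, 10.71 and 10.79 in 3D, overlapping between groups, with a change of -0.19 on the log2 scale (SE 0.06, limma adjusted p = 0.0321), and it fell by 12.1% on this scale. The other probe sets gave -0.17 (SE 0.05, limma adjusted p = 0.0166) and -0.29 (SE 0.06, limma adjusted p = 0.00232), also with overlap. The call of the brightest ended when each array was centred on its median (-0.16, limma adjusted p = 0.0703). It also ended without any 1 of 2D arrays 1, 2, 3 and 5 and 3D arrays 1 and 2, with limma adjusted p between 0.0525 and 0.0782. The other probe sets passed without any 1 array. With the control ratio as a covariate the brightest had -0.33 (limma adjusted p = 0.0228) and the others -0.21 (limma adjusted p = 0.117) and -0.19 (limma adjusted p = 0.229).

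CDH6, K-cadherin, is a classical cadherin of the developing kidney tubule. Of its 4 probe sets 3 rose, and the brightest did not. That one had 2D values from 11.34 through 11.41 to 11.44 and 3D values from 11.16 through 11.34 to 11.38, with a change of -0.09 on the log2 scale (SE 0.05, limma adjusted p = 0.151). The others gave 0.25 (SE 0.08, limma adjusted p = 0.0169), 0.41 (SE 0.05, limma adjusted p = 1.68e-05) and 0.37 (SE 0.05, limma adjusted p = 4.28e-05). The call of the second probe set ended with the control ratio as a covariate (0.044, limma adjusted p = 0.834), with the wider ratio that adds an actin pair (0.093, limma adjusted p = 0.510) and with quantile normalization (0.16, limma adjusted p = 0.0679), which leaves 2 that rose. The third and the fourth passed with the ratio, at 0.35 (limma adjusted p = 0.00936) and 0.42 (limma adjusted p = 0.00263). On the third probe set the 3D values of 9.07 to 9.21 lay above the 2D values of 8.54 to 8.84, and on the fourth 8.19 to 8.43 lay above 7.79 to 8.03. The third and the fourth carry the same target name on the array and are not independent measurements. The mean of the 4 probe sets passed, at 0.24 (limma adjusted p = 0.000324), so the call for CDH6 as a gene depends on the probe set chosen.

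CDH3, P-cadherin, is a classical cadherin of basal and placental epithelium, and CDH1 and CDH3 lie near each other on 1 chromosome, with 1 protein-coding gene between them in the RefSeq annotation of UU_Cfam_GSD_1.0. Its 3 probe sets lay close to the control level. The brightest had values of 6.02, 6.16 and 6.28 in 2D and 5.86, 5.87 and 6.30 in 3D, a change of -0.18 on the log2 scale (SE 0.08, limma adjusted p = 0.0730), and the high 3D value was that of array 2. Without that array it was -0.25 (limma adjusted p = 0.00372), and with array weights -0.24 (limma adjusted p = 0.00652), which are calls. The second gave -0.05 (SE 0.09, limma adjusted p = 0.649). The third rose: its 2D values of 5.37 to 5.85 lay at or below the control level on 4 of 6 arrays, its 3D values of 6.06 to 6.46 lay above it on all 6, and the log2 change was 0.58 (SE 0.08, limma adjusted p = 4.43e-05).

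Whether the probe sets of a gene changed unequally was tested on the difference of their values within each array, over all 19 pairs of probe sets of the 8 genes with more than 1. Of these pairs 6 passed (exact permutation test, adjusted over the 19). In CDH6 the brightest probe set differed from each of the other 3, by -0.34, -0.50 and -0.46 (exact permutation p = 0.00216 each, the smallest this design allows, adjusted 0.00823). In CDH3 the first and the second probe set differed from the third by -0.76 and -0.63, at the same p. In CTNNA1 the brightest differed from the second by -0.13 (exact permutation p = 0.00866, adjusted 0.0274). Of these 6, 4 no longer passed with the control ratio as a covariate: the CDH3 differences were -0.47 and -0.43 (the first and the second minus the third, adjusted permutation p = 0.0658 and 0.149), the first minus the second CDH6 probe set -0.19 (adjusted permutation p = 0.196), and the CTNNA1 difference -0.046 (adjusted permutation p = 0.553). The first CDH6 probe set still differed from the third and the fourth, by -0.49 and -0.57 (adjusted permutation p = 0.0137 each). The plot of every probe set shows these disagreements.

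**Figure D3:**
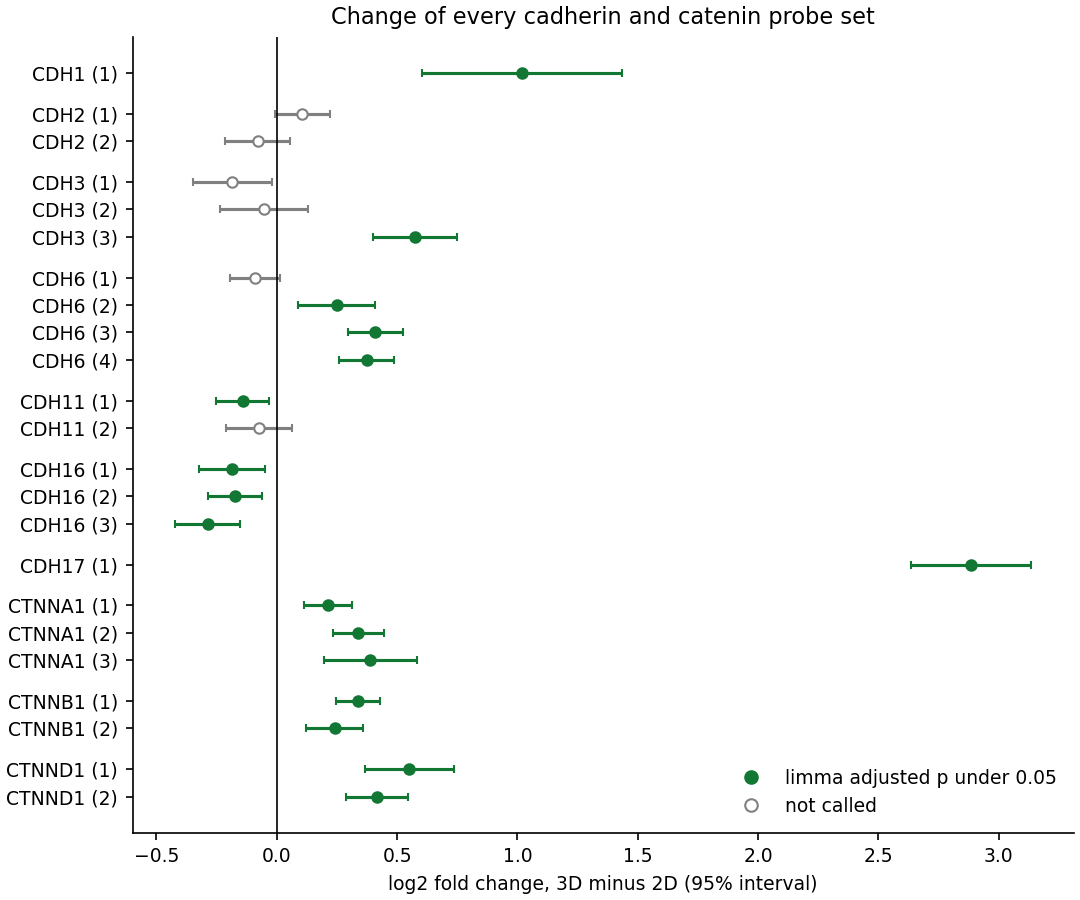
Log2 change, 3D minus 2D, of all 23 probe sets on the horizontal axis, with 95% intervals from limma. Rows are probe sets numbered within a gene from the highest mean, filled green where the adjusted p was under 0.05. CDH17 at 2.88 and CDH1 at 1.02 lie farthest to the right, the 7 catenin probe sets lie to the right of 0, the 3 of CDH16 to the left, and those of CDH3 and CDH6 on both sides.

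CDH2 and CDH11 are classical cadherins whose gain often goes with loss of E-cadherin in mesenchymal transition. The brighter CDH2 probe set had values of 5.37, 5.54 and 5.58 in 2D, at or below the control level on all 6 arrays, and of 5.46, 5.60 and 5.71 in 3D, at or below it on 4 of 6. Its log2 change was 0.11 (SE 0.05, limma adjusted p = 0.132), and 0.18 after quantile normalization (limma adjusted p = 0.0189). The dimmer lay at or below the control level on all 12 arrays. The brighter CDH11 probe set had 5.62, 5.66 and 5.75 in 2D and 5.36, 5.56 and 5.64 in 3D, at or below the control level on 5 of 6 arrays in each group. It was counted among the genes lowered (log2 change -0.14, SE 0.05, limma adjusted p = 0.0424), and that call ended under 13 of 22 alternatives, among them leaving out any 1 of 2D arrays 2 to 5 or 3D arrays 3 to 5 (limma adjusted p 0.0588 to 0.104). Signal this near the control level cannot be told from background, so these log2 changes are printed as the fit gave them and are no measure of a change in either gene.

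Over all 23 probe sets 13 rose, 4 fell and 6 were not called, where 16.7% of all probe sets rose and 22.0% fell. The values of the groups did not overlap for 10 of the 23, against 18.7% of all probe sets, and for 4 of the 10 genes (CDH17, CTNNA1, CTNNB1 and CTNND1), against 22.6% of all genes. With the control ratio as a covariate 8 of the 23 rose and 1 fell, where 10.0% of all probe sets rose and 8.44% fell in that fit. By gene, 2 rose (CDH17 and CTNNB1) and 1 fell (CDH16), where 12.6% of all genes rose and 8.33% fell.

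Whether E-cadherin changed more than its partners was tested on the within-array difference between CDH1 and each of the other 9 genes. Each gene was represented by 1 probe set. Probe sets of a single gene differed by as much as -0.76 in CDH3, and the part of probe set response in the differences below was not tested. The change of CDH1 exceeded that of CTNNA1 by 0.80 (SE 0.23, exact permutation p = 0.0108, adjusted 0.0162 over 9 differences) and that of CTNNB1 by 0.68 (SE 0.23, exact permutation p = 0.0238, adjusted 0.0268). It exceeded that of CTNND1 by 0.47 (SE 0.23), which did not pass (exact permutation p = 0.0736, adjusted 0.0736) but did without 3D array 2 (0.66, adjusted exact permutation p = 0.00278) and with the mean over probe sets (0.53, adjusted exact permutation p = 0.0455). Among other cadherins it exceeded CDH3, whose probe sets lay close to the control level, by 1.20, CDH6 by 1.11 and CDH16 by 1.20 (adjusted exact permutation p between 0.00974 and 0.0167). Other probe sets of CDH3 and CDH6 rose. With the mean over probe sets these differences were 0.91 for CDH3 and 0.78 for CDH6 (adjusted exact permutation p = 0.0167 and 0.0162). No difference is given for CDH2 and CDH11, whose signal lay at or below the control level on most arrays. The change of CDH1 fell short of that of CDH17, with a difference of -1.87 (SE 0.23, exact permutation p = 0.00216, adjusted 0.00974). The difference from CDH17 was the only 1 of the 9 that passed with the control ratio as a covariate. In that fit the differences from the catenins were -0.035 (CTNNA1), -0.17 (CTNNB1) and -0.22 (CTNND1), with adjusted permutation p of 0.866, 0.471 and 0.610.

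Likeness was measured as Pearson's r over the 12 arrays after each group's mean was subtracted, against 11282 other genes above the control level on every array, and carries no p because the genes were picked for the highest r. Those most like CDH1 were RHBDD1 (r 0.99), ZNF655 (0.99), TMOD3 (0.98), CD2AP (0.98) and REEP3 (0.97), with Spearman's rho from 0.84 to 0.99. Without 3D array 2 and 2D array 6, the arrays farthest from the median of CDH1's deviations, r was 0.91 to 0.96. Of these TMOD3, which caps actin filaments, rose in 3D by 0.77 (limma adjusted p = 0.00737), CD2AP, an adaptor at the podocyte slit diaphragm, by 0.53 (limma adjusted p = 0.0236) and REEP3 by 0.56 (limma adjusted p = 0.0145). RHBDD1 and ZNF655 were not called, at 0.32 (limma adjusted p = 0.0870) and 0.19 (limma adjusted p = 0.317). Those most like CDH16 were LOC479485 (r 0.94), and RIPK1, CHMP2B, PSMA6 and PRMT3 (r 0.88 each). The arrays share their RNA pools and their control ratio across all these genes.

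Genes around the complex were grouped in 8 lists, with each gene again represented by its probe set of highest mean. Over all genes 19.8% rose and 22.9% fell, the shares to set beside each list count. Of 17 other catenins and catenin partners, 5 rose and 4 fell, with a median log2 change of -0.01. Vinculin, VCL, which binds alpha-catenin under tension, rose by 1.03 (SE 0.10, limma adjusted p = 4.42e-07), the actin crosslinker ACTN4 by 0.76 and VASP, which promotes actin filament growth, by 0.53. Of the 2 VCL probe sets 1 rose and 0 fell. The 2D mean of VCL, 6.45, lay below those of CDH5 and KDR, so the limit given for CDH17 holds for its fold. KIFC3, a minus-end motor at adherens junctions, fell by 0.54 (SE 0.06, limma adjusted p = 1.15e-06). Outside the naming rule and chosen after its values were seen, plakoglobin, JUP, a close relative of beta-catenin that also serves desmosomes, rose on all 3 of its probe sets and by 0.25 on the brightest (SE 0.05, limma adjusted p = 0.000591). PKP4 of the same list, also named outside the rule, went the other way. It fell on all 6 of its probe sets and by 0.32 on the brightest (SE 0.05, limma adjusted p = 0.0001).

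Most of the other cadherins were not called. Of 34 measured, 1 rose and 8 fell, where 22.9% of all genes fell. The values of 0 separated the groups, against 22.6% of all genes. On every array 11 of the 34 lay at or below the control level. Among those 11 were CDH8, CDH19 and FAT4, which are counted with the 8 that fell. The median was -0.08. PCDH1, a protocadherin of epithelium, had 6.37 ± 0.17 in 2D and 6.68 ± 0.22 in 3D (SD, n = 6 per group) and rose by 0.31 (limma adjusted p = 0.0224), but not without any 1 of 2D arrays 1 and 2 and 3D arrays 5 and 6 (limma adjusted p up to 0.0548). Of its 2 probe sets 1 rose and 0 fell. CDH7 fell by 0.30, CLSTN3 by 0.24 and CDH19, below the control level on every array, is given no fold. CLSTN3 lay at or below the control level on 1 array of 2D and 3 arrays of 3D. The call of CDH7 ended without 2D array 2, 3D array 1 or 3D array 6 (limma adjusted p 0.0518 to 0.0520), and that of CLSTN3 without 3D array 4 (limma adjusted p = 0.0510). With quantile normalization both also missed the threshold (limma adjusted p = 0.0575 for CDH7 and 0.0597 for CLSTN3), and with the control ratio as a covariate so did CDH7 (0.265), CLSTN3 (0.213), CDH19 (0.629) and PCDH1 (0.522), by limma adjusted p, and all 4 with the wider ratio. With quantile normalization 2 of these genes fell, and without 3D array 4 there were 4.

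Of 13 nectins and other junction adhesion genes, 3 rose and 4 fell, with a median of -0.02. NECTIN3, an immunoglobulin-like adhesion protein that acts beside cadherins and lay at or below the control level on 2 of 6 arrays of 2D, rose by 0.62 (SE 0.08, limma adjusted p = 1.49e-05) and CEACAM1 by 0.54. CADM1 fell by 0.78 on its brightest probe set (SE 0.08, limma adjusted p = 8.36e-07), and 4 of its 7 probe sets fell and 0 rose. The receptor phosphatase PTPRJ fell by 0.57.

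Genes that act on beta-catenin outside the junction moved both ways. In the list of the destruction complex, which marks free beta-catenin for degradation, and of its nuclear cofactors, 5 of 25 rose and 5 fell, with a median of -0.02. The kinases GSK3B and CSNK1D rose by 0.40 and 0.37 and the cofactor BCL9 by 0.55, and TCF7L1, a repressor of the TCF family, fell by 0.36, but did not pass with the control ratio (limma adjusted p = 0.235) or the wider ratio (0.0922). For CSNK1D 3 of 4 probe sets rose and 0 fell, and for TCF7L1 1 of 2 fell and 0 rose. Without 3D array 2, 8 of the 25 fell. Of 17 beta-catenin/TCF target genes 6 rose and 3 fell, with a median of 0.0038, and 6 fell without 2D array 3 or without 3D array 2. CCND1, cyclin D1, rose by 1.89, the hyaluronan receptor CD44 by 1.48 and NOTUM, a secreted Wnt inhibitor, by 0.74, and APCDD1, a Wnt inhibitor of the membrane, fell by 1.14 (SE 0.08, limma adjusted p = 2.42e-08). NOTUM lay at or below the control level on 2 of 6 arrays of 2D. AXIN2, a target often used to read Wnt signalling and named outside the rule after its values were seen, was not called (0.07, SE 0.08, limma adjusted p = 0.532), and 0 of its 6 probe sets were.

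Of 20 genes of cadherin processing, turnover and traffic, 6 rose and 5 fell, with a median of -0.05. Leaving out 2D array 6, 3D array 3 or 3D array 6 left 3 raised, and leaving out 2D array 1, 3, 4 or 5 or 3D array 6 left 2 or 3 lowered. ARF6, a small GTPase of endocytosis and recycling, rose by 0.66 (SE 0.08, limma adjusted p = 4.23e-06) and RAB11A, a GTPase of recycling endosomes, by 0.31 (SE 0.04, limma adjusted p = 1.64e-05). CBLL1, a ubiquitin ligase for E-cadherin also called Hakai, fell by 0.25, and PTPN14 fell by 0.24. For CBLL1 1 of 2 probe sets fell and 0 rose, and for PTPN14 all 3 fell. The call of CBLL1 ended without 2D array 1 (limma adjusted p = 0.0605) and without 2D array 3 (0.0561), and that of PTPN14 without any 1 of 7 arrays (2D arrays 1, 3, 4 and 5 and 3D arrays 4, 5 and 6; 0.0564 to 0.0883). That of PTPN14 also ended with quantile normalization (0.0534), median centring (0.0673), the control ratio (0.241) and the wider ratio (0.150), all limma adjusted p.

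Of 12 repressors of CDH1 transcription, 3 rose and 2 fell, with a median of -0.09, and 4 lay at or below the control level on every array; 1 fell without 2D array 2, 2D array 5 or 3D array 4. SNAI2, which binds E-boxes of the CDH1 promoter, had 8.12 ± 0.25 in 2D and 9.76 ± 0.14 in 3D (SD, n = 6 per group) and rose by 1.64 (SE 0.10, limma adjusted p = 2.54e-09). EZH2, a histone methyltransferase, rose by 0.70, TCF3 rose by 0.22 and CTBP1, a corepressor, fell by 0.27. TCF3 did not pass with the control ratio as a covariate (limma adjusted p = 0.0584). Outside the rule, ZEB1 was not called on its brightest probe set, near the control level, while 2 of its 5 rose and 0 fell. Of 19 activators of epithelial cadherin transcription 2 rose and 6 fell, with a median of -0.07. KLF4 had 6.76 ± 0.61 in 2D and 8.44 ± 0.23 in 3D (SD, n = 6 per group) and rose by 1.68 (SE 0.22, limma adjusted p = 1.46e-05), and KLF5 rose by 0.35. GRHL1 fell by 0.27 and FOXA1, near the control level, by 0.28, a call that ended with the control ratio (limma adjusted p = 0.167) and the wider ratio (0.0889). For KLF4 1 of 2 probe sets rose and 0 fell, and for GRHL1 1 of 3 fell and 0 rose. Several list counts shrank with the control ratio as a covariate, as given among the alternatives. The plot of genes raised and lowered shows the counts by list.

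**Figure D4:**
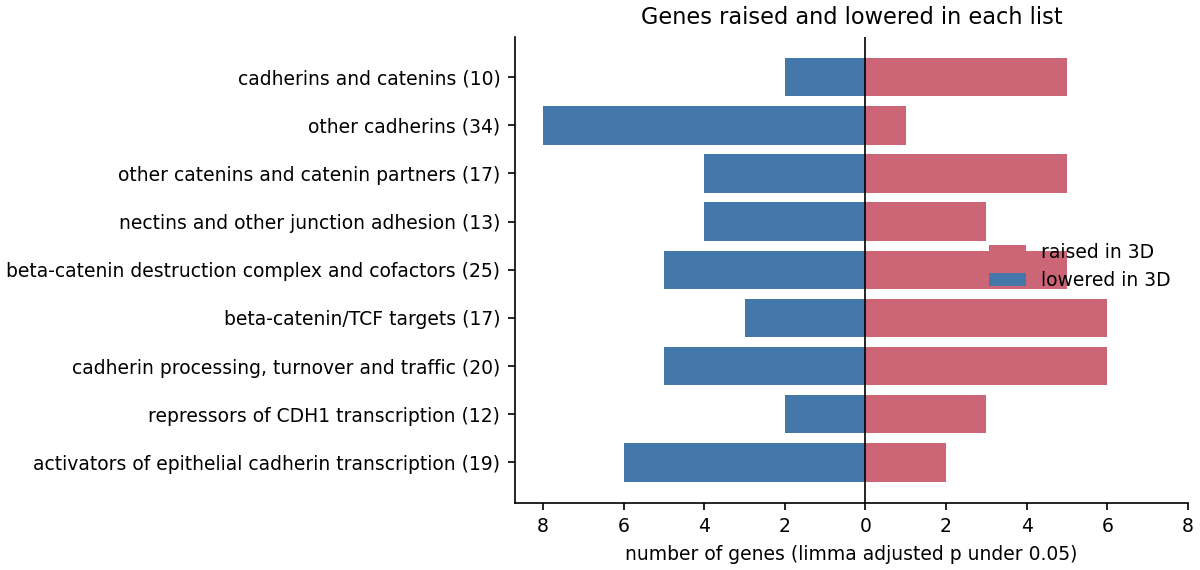
Number of genes raised (right) and lowered (left) in 3D at a limma adjusted p under 0.05 on the horizontal axis, for the cadherins and catenins and for 8 related lists, with the number of genes measured in brackets. The cadherins and catenins have 5 raised and 2 lowered of 10, and the other cadherins 1 raised and 8 lowered of 34. Over all genes 19.8% rose and 22.9% fell.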

How the data were processed

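RNA of 12 samples was hybridised to one-colour Affymetrix dog arrays. The deposited values are linear intensities per probe set, and GCRMA is named without a version in the submitters' processing notes. Its background model, and any scaling afterwards, is not stated here. Precision is set by how many arrays each group has. After log2(intensity + 1), limma 3.58.1 (R 4.3.3; lmFit, then eBayes) compared the cultures, two-sided, with Benjamini-Hochberg adjustment over 42924 probe sets at 0.05; 111 control probe sets were left out. Single values were tested with two-sided exact permutation tests, enumerating 924 assignments of arrays to groups. With the control ratio as a covariate, groups were permuted while each ratio stayed with its array. The ratio differs between the groups, so permutation p-values in that fit are approximate. Probe sets were named from the platform annotation (29254 with 1 gene, 439 with several, 13231 with none), and all 10 members matched RefSeq. Suffixes _s_at and _x_at mark probe sets that can bind several transcripts (CDH1 has an _s_at probe set). The members and lists were chosen with earlier results of these data known. All members are named, with up to 4 genes per other list: those changed most among the called, or the 2 of highest mean where fewer passed. The 5 genes most like CDH1 and the 5 most like CDH16 are also named. The alternatives were a pseudocount of 16, a filter of log2 above 6 on 6 arrays, quantile normalization, median centring, array weights, trend with robust fitting, a replicate block, the mean over probe sets, the control ratio as a covariate and leaving out each array. A wider ratio and the removal of 2D array 6 with 3D array 2 were added after the values were seen. The fit was tested on simulated data. Figures were drawn with matplotlib 3.10.9.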

Additional observations from a re-analysis of the deposited data

Results flagged for a closer look

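In 9 of 112 groups of 6 arrays examined, 1 array lay far from the others by Dixon's criterion; chance gives about 1 in 20. Array 2 of 3D accounted for 4: CDH1 at 6.65 (nearest 7.68), the third CTNNA1 probe set at 10.62 (nearest 11.13), CTBP1 at 7.03 (nearest 7.35) and the control ratio at -0.88 (nearest -0.55). Array 6 of 2D accounted for 3: the dimmer CDH2 probe set at 5.34, the second CTNNA1 probe set at 11.50 and BCL9 at 9.004. Array 1 of 2D accounted for the dimmer CDH11 probe set at 4.97 and for VASP at 10.60.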

How the results depend on the processing

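CDH17 and CTNNB1 kept direction and call under each of the alternatives run for them, CDH17 between 2.72 and 2.94 and CTNNB1 between 0.28 and 0.36. With the control ratio as a covariate 2 members rose, 1 fell, 8 probe sets rose and 1 fell; CDH1 had 0.15, CDH11 -0.10, CTNNA1 0.18 and CTNND1 0.37. With the wider ratio 3 rose, 1 fell and 1 probe set fell, and CDH1 had 0.37, CDH11 -0.11 and CTNNA1 0.19. The count of lowered members was 1 with the pseudocount of 16, with the filter and with the replicate block, and 0 with median centring, which lowered 2 probe sets. CDH11 had -0.11 with the pseudocount of 16, -0.066 with quantile normalization, -0.12 with centring and -0.14 with the replicate block. CDH16 had -0.16 with centring. Calls were gained for CDH2 (0.18) and CDH6 (-0.14) with quantile normalization, and for CDH3 with array weights (-0.24) and without 2D array 6 and 3D array 2 (-0.23). The mean over probe sets reversed CDH3 (0.11) and CDH6 (0.24). The second CDH3 probe set reversed to 0.010 with quantile normalization, 0.036 with the ratio and 0.018 with the wider ratio, and the dimmer CDH2 probe set to 0.0061 with the ratio. CDH1 minus CTNNA1, CTNNB1 and CTNND1 reversed to -0.035, -0.17 and -0.22 with the ratio, and the last to -0.046 with the wider ratio.

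Without 1 array, 5 members rose in each fit, 0 to 2 fell (0 without 2D array 2, 3 or 5), 13 probe sets rose and 2 to 4 fell. Log2 fold changes ranged from -0.25 to -0.16 for CDH3, -0.16 to -0.11 for CDH11 and -0.21 to -0.14 for CDH16.

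The replicate numbers were checked for pairing: deviations of same-numbered arrays correlated between 0.00084 and 0.36, all positive and above 0.1 in 3 of 6 pairs, and 1 of 6 arrays of 3D lay closest to its own number. The criterion for pairing, every pair above 0.1, was not met, so the numbers were not taken as pairs, and a weak shared component was not tested. In the block fit the 6 differences between probe sets and 8 between CDH1 and other members were at adjusted p of 0.0848 and 0.0703, since 6 pairs allow few sign changes.

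List counts moved most with the control ratio: lowered genes were 1 (other cadherins), 2 (nectins), 0 (destruction complex), 1 (TCF targets), 2 (processing), 1 (repressors) and 2 (activators), and raised genes 0 (other cadherins), 3 (destruction complex) and 3 (processing). In the fit with the ratio 12.6% of all genes rose and 8.33% fell. Array weights lowered 5 TCF targets and 4 repressors. The causes were not tested.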
